A study of Mus musculus with 6 samples.

Results

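The proteasome genes of whole mouse dorsal skin are described here, taken 2 days into the experiment from control skin and from skin treated with DPCP (diphenylcyclopropenone, a hapten used to elicit contact allergy). Members were chosen by symbol, as protein-coding genes named Psm with a letter from a to g and a number, and selected on 1 measured value, a sum of at least 10 reads over the 6 libraries. The immunoproteasome genes Psmb8, Psmb9 and Psmb10 were set apart. This gave 44 genes out of 55487 in the deposited table. They comprised 15 genes of the core particle, 17 of the regulatory particle, 5 activators or inhibitors and 7 assembly factors. The thymus form Psmb11 fell outside with 1 read in all, and the nearest member inside was the testis form Psma8 with 83. The next lowest, Psmg3, had 1055 reads, and the highest, Psmd2, had 69893.

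There were 3 control and 3 DPCP libraries of polyadenylated RNA, each with a library total between 28346992 and 38846787 reads. The labels state neither what the control skin received nor the strain, the age or whether each library is a different animal. The p-values therefore reflect variation among these libraries, some of which may be technical. Keratinocyte genes identified the tissue as skin in every library, with a summed level of 17517 to 22647 CPM (counts scaled to library size, here adjusted by trimmed means) in control and 25426 to 29116 CPM in DPCP skin. These genes did not rise evenly. Mean Krt14 went from 4776 to 17426 CPM, whereas mean Krt10 went from 5919 to 1020 CPM and mean Krt1 from 3126 to 1853 CPM.

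The proteasome is the barrel-shaped protease that degrades proteins tagged with ubiquitin in the cytosol and nucleus. Its core particle stacks rings of alpha subunits, which gate the entrance, and beta subunits, of which Psmb5, Psmb6 and Psmb7 carry the active sites. The regulatory particle caps the core: a base with a ring of ATPases (Psmc) unfolds the substrate, and the other subunits (Psmd) bind ubiquitin chains, remove them and hold the particle together. Dedicated chaperones assemble both particles, and alternative activators can replace the regulatory particle. In epidermis, as in other tissues, the proteasome removes cell cycle regulators and damaged proteins and supplies peptides for antigen presentation.

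Most proteasome genes were modestly higher in DPCP skin. Of the 44 members, all of which passed the filter on low counts, 31 were higher, none was lower and 13 were not called by edgeR's quasi-likelihood test at a Benjamini-Hochberg adjusted p under 0.05, adjusted over all 18259 genes tested. Across all genes tested, 22.8% were called higher and 23.3% lower, 46.1% in either direction. Among the 4586 genes with a mean of at least 50 CPM, a limit chosen after the data were seen, 31.1% were called higher and 24.6% lower. The median log2 fold change of the members was 0.34, against −0.01 over all genes tested and 0.06 over the genes of at least 50 CPM. With the members' counts added up, proteasome genes stood at 4546, 4177 and 4605 CPM in the control libraries and at 5503, 5741 and 5611 CPM in the DPCP libraries. The lowest DPCP library was therefore above the highest control library, and the ratio of the group means was 1.26.

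The change was small in size, and it differed between genes. Only 3 of the 44 members, Psmc4, Psmd11 and Psmd3, were called higher by at least 1.5-fold, out of 31 called higher at any size. Of all genes tested, 14% were called higher and 15.8% lower by that margin. The 14% were 2565 genes, out of 4163 called higher at any size. The members' log2 fold changes had an SD of 0.22, beside a median SE of 0.09. They ran from −0.51 for the rarely read Psma8 to 0.62 for Psmc4. Over all genes tested, which include many of low counts, the SD was 1.04 and the range −8.15 to 11.04. The quartiles lay at −0.45 and 0.38 over all genes tested, and at −0.28 and 0.37 over the genes of at least 50 CPM. All 3 DPCP libraries exceeded all 3 control libraries for 34 members, a pattern that 28.6% of all genes tested showed. They lay below all controls for 1 member, Psma8, against 29.4% of all genes. Control replicate 2 was the lowest control library for 38 of the 44 members, a pattern not counted over all genes tested. Leaving out control replicate 2 gave 23 members called higher, and leaving out DPCP replicate 2 gave 24. Of the 31 calls, 23 held without each library in turn. Whether these losses were particular to the members was not tested.

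**Figure D1:**
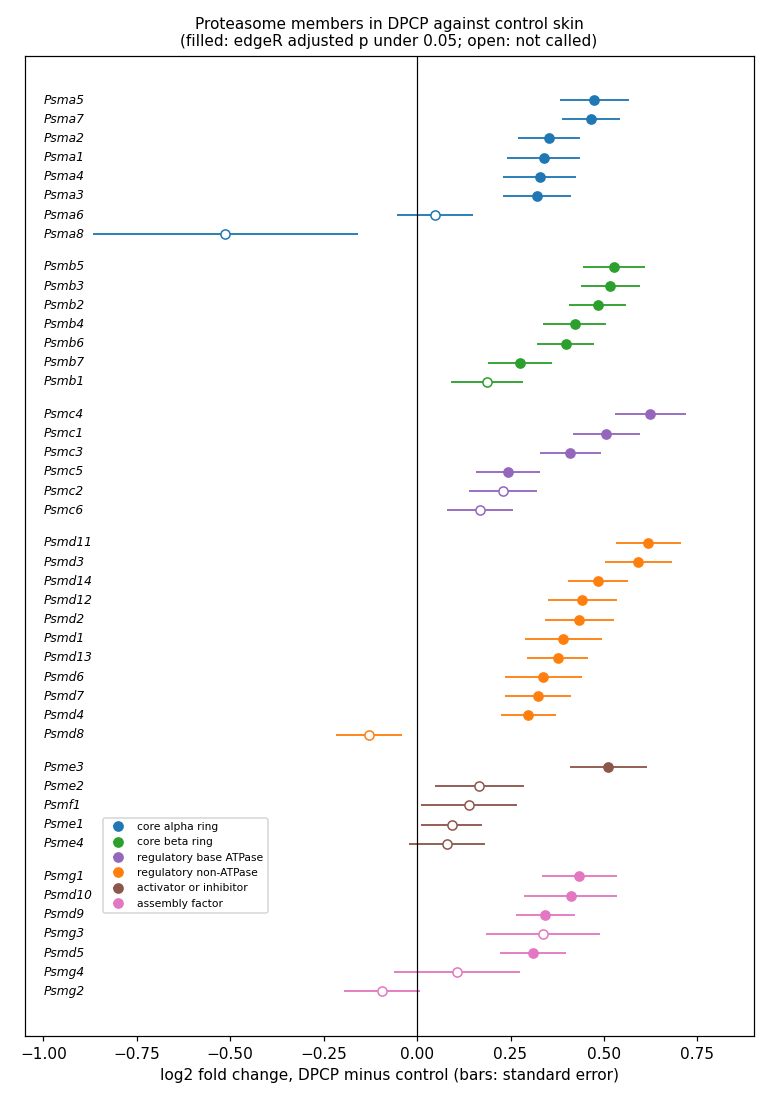
The log2 fold change of each of the 44 members (x axis, DPCP minus control) is drawn with its standard error, in 6 groups; filled points passed an edgeR adjusted p of 0.05 and open points did not. The filled points lie between 0.24 and 0.62, and 3 open points, Psma8, Psmd8 and Psmg2, lie below 0.

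**Figure D2:**
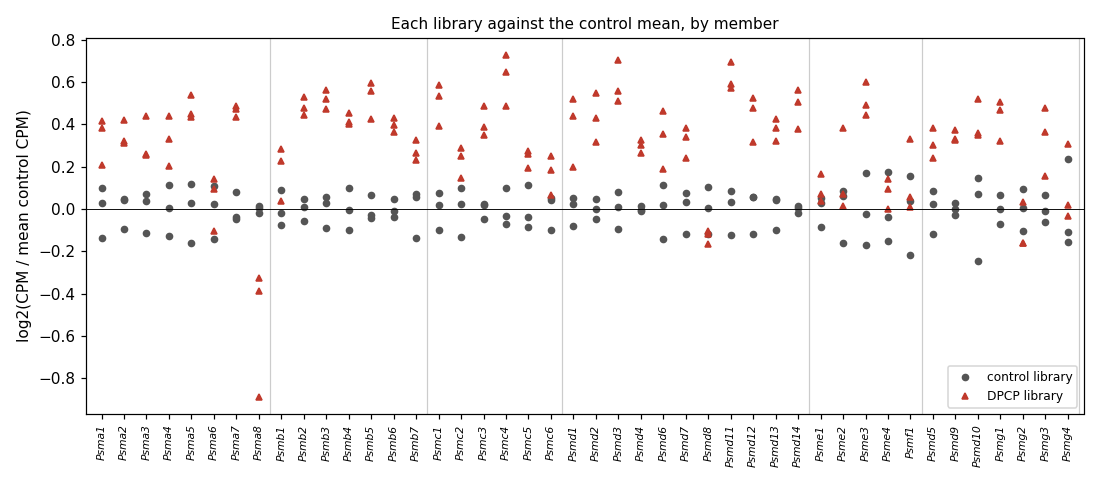
Each library's CPM divided by the control mean (y axis, log2) is plotted for every member, with circles for the 3 control and triangles for the 3 DPCP libraries. Triangles lie above all circles for 34 of 44 members and below all of them for Psma8.

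Promoter sequence was compared because so many members moved together. A RefSeq promoter window on GRCm38.p6 was found for 36 of the 44 members, and the 250 bases before each start were searched on both strands. The pattern TGACNNNGC is the core of the antioxidant response element, which the transcription factors Nfe2l1 and Nfe2l2 bind with small Maf partners. It occurred in 5 of the 36 members (13.9%) and in 11.99% of 17492 protein-coding genes. The CCAAT box, a pattern bound by the Nfy factors, occurred in 12 of 36 members (33.3%) and in 39.5% of protein-coding genes, and in none of the 5 windows with the first pattern, so the patterns did not overlap there. Neither share of the members was far from that of all genes. A match is only a string of letters, and occupancy was not measured.

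Windows are shown for the 3 members with a TGACNNNGC match within 50 bases of the start (Psmb5, chr14:54617996-54618245, minus strand; Psmb6, chr11:70525107-70525356, plus strand; Psmd9, chr5:123227940-123228189, plus strand). For contrast they are followed by the member with the largest log2 fold change (Psmc4, chr7:28050093-28050342, minus strand) and by a lid gene that was not called (Psmd8, chr7:29180674-29180923, minus strand). Each reads 5′ to 3′ on the strand of its gene, and capitals mark the match.
Psmb5: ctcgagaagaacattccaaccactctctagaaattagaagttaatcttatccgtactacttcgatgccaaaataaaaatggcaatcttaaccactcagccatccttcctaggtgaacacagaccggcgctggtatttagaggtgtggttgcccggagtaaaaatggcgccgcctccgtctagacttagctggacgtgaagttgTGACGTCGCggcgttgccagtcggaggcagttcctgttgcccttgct
Psmb6: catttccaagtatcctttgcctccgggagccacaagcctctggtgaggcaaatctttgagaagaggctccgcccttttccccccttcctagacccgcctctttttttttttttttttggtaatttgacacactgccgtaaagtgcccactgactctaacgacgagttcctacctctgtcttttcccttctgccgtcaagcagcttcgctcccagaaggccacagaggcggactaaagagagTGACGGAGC
Psmd9: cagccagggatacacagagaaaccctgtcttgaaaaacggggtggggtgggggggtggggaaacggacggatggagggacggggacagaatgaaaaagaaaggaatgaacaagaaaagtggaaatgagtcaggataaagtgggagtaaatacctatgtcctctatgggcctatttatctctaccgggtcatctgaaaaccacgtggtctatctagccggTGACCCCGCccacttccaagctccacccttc
Psmc4: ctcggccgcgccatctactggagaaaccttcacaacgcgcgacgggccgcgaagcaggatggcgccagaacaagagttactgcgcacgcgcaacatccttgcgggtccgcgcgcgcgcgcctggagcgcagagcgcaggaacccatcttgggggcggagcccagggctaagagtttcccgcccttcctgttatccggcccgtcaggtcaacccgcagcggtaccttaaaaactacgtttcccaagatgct
Psmd8: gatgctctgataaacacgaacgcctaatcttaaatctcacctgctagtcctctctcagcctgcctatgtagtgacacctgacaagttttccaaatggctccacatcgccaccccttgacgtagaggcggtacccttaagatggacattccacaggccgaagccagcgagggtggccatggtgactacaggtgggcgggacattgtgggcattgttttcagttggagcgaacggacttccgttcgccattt
The matches began 47, 9 and 31 bases before the start in Psmb5, Psmb6 and Psmd9, all on the strand of the gene. No TGACNNNGC lay in the windows of Psmc4 and Psmd8, whose log2 fold changes were 0.62 and −0.13.

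In the alpha ring, 6 of 8 genes were higher (75%, against 22.8% over all genes tested) and 2 were not called. Psma7, an alpha subunit of the ring (ENSMUSG00000027566, GRCm38 chromosome 2, 180036374 to 180042433), was at 135, 124 and 125 CPM in the control libraries and at 179.9, 173 and 178 CPM in the DPCP libraries. The groups did not overlap, and the log2 fold change was 0.47 ± 0.08 (SE, n = 3 per group; edgeR adjusted p = 0.00173). Psma5, another subunit of this ring, was at 77.4, 63.9 and 72.7 CPM in control and at 96.4, 103 and 97.4 CPM in DPCP skin, again without overlap. Its log2 fold change was 0.47 ± 0.09 (SE, edgeR adjusted p = 0.00354), although 27.5% of the 100-base stretches of its longest coding transcript also occur in transcripts of other genes, whose reads the counting may have dropped. Psma2 rose from 126, 115 and 127 to 153, 164 and 152 CPM, by 0.35 ± 0.08 on the log2 scale (SE, edgeR adjusted p = 0.00842). Psma1, Psma3 and Psma4 rose by 0.32 to 0.34 on the same scale. None of these 3 kept its call without every library: without DPCP replicate 2 their edgeR adjusted p-values were 0.0592, 0.0696 and 0.0813.

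Psma6 differed from the other ubiquitously expressed alpha genes in that it was not called. It was at 117, 104 and 124 CPM in control and at 123, 127 and 107 CPM in DPCP skin, so that the groups overlapped throughout. The log2 fold change was 0.05 ± 0.10 (SE, edgeR adjusted p = 0.722), and its sign turned under library totals alone. Whether Psma6 differs from its ring partners was not tested. Psma8, an alpha subunit of testis, was at 0.511, 0.4999 and 0.507 CPM in control and at 0.404, 0.274 and 0.387 CPM in DPCP libraries. It was not called (log2 fold change −0.51 ± 0.35, SE, edgeR adjusted p = 0.262). The germ cell genes Ddx4 and Sycp3 together stood at 0.239 to 0.722 CPM over the 6 libraries.

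In the beta ring 6 of 7 genes were higher (85.7%, against 22.8% over all genes tested), and the median log2 fold change was 0.42. Psmb5, which holds the chymotrypsin-like active site (ENSMUSG00000022193, chromosome 14, 54614119 to 54618022), was at 59.7, 59.2 and 63.7 CPM in control and at 81.7, 91.8 and 89.5 CPM in DPCP libraries. All DPCP libraries lay above all controls, and the log2 fold change was 0.53 ± 0.08 (edgeR adjusted p = 0.00121). Of its 100-base stretches, 24.9% also occur in other genes. Psmb6, with the caspase-like site, rose by 0.40 ± 0.08 and Psmb7, with the trypsin-like site, by 0.27 ± 0.09 (SE), the latter at an edgeR adjusted p of 0.0292. Psmb7 shares exon bases with Nek6 on the other strand, which strand-blind counting cannot separate, and its call was lost without control replicate 2 (edgeR adjusted p = 0.0744), and also on leaving out control replicate 3, DPCP replicate 1 or DPCP replicate 2 alone.

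Of the structural beta genes, Psmb3 went from 104, 94.0 and 101.9 to 143, 148 and 139 CPM, a rise of 0.52 ± 0.08 on the log2 scale (edgeR adjusted p = 0.00111). Psmb2 went from 102.6, 97.8 and 105 to 139, 147 and 142 CPM, a rise of 0.48 ± 0.08 (edgeR adjusted p = 0.00126). In both genes the gap between the groups exceeded the range within either. Psmb4 rose by 0.42 ± 0.08 (SE). Psmb1 was at 176, 157 and 164 CPM in control and at 202, 194 and 170.2 CPM in DPCP skin. DPCP replicate 3 lay within the control range, and the log2 fold change of 0.19 ± 0.10 (SE) was not called (edgeR adjusted p = 0.140).

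All 6 ATPase genes of the regulatory base were higher in every DPCP library than in every control library, as were 28.6% of all genes tested. Of the 6, 4 were called higher (66.7%, against 22.8% over all genes tested). Psmc4 (ENSMUSG00000030603, chromosome 7, 28041707 to 28050101) had the largest log2 fold change of all members. It was at 103, 101 and 113 CPM in control and at 148, 166 and 175 CPM in DPCP libraries, a difference of 0.62 ± 0.09 on the log2 scale (edgeR adjusted p = 0.00100). Psmc1 went from 140.4, 129 and 146 to 182, 208 and 201 CPM, by 0.51 ± 0.09 on the log2 scale (SE). Psmc3 went from 195, 185 and 194 to 244, 268 and 250.1 CPM, by 0.41 ± 0.08 (SE). These 3 genes kept their calls without each library in turn. Psmc5 was called at an edgeR adjusted p of 0.0465 with a log2 fold change of 0.24 ± 0.09 (SE). That call did not hold without control replicate 1 or 2, or without any of the 3 DPCP libraries (edgeR adjusted p of 0.0531 to 0.117). Psmc2 (0.23 ± 0.09, SE) did not pass. Psmc6 was at 137, 123 and 136 CPM in control and at 149.9, 157 and 138 CPM in DPCP libraries, narrowly apart, and did not pass either (0.17 ± 0.09, SE, edgeR adjusted p = 0.147).

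Of the 11 other regulatory particle genes, 10 were higher (90.9%, against 22.8% over all genes tested). Psmd11, a lid subunit (ENSMUSG00000017428, chromosome 11, 80428615 to 80473248), had the smallest p of all members. This gene was at 88.2, 79.2 and 91.6 CPM in control and at 128, 129.9 and 139 CPM in DPCP skin, a difference of 0.62 ± 0.09 on the log2 scale (edgeR adjusted p = 0.00071). Psmd3, a lid subunit, rose from 85.1, 79.0 and 89.2 to 120.2, 124 and 138 CPM (log2 fold change 0.59 ± 0.09, SE). Psmd14, the deubiquitinase that cuts ubiquitin chains off substrates, rose from 76.8, 77.4 and 75.7 to 99.7, 113 and 109 CPM (0.48 ± 0.08, SE). Psmc3 and Psmd3 share exon bases with genes on the other strand. In Psmd11, Psmd3 and Psmd14 the gap between the groups exceeded the range within either.

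The scaffold genes of the base, Psmd1 and Psmd2, rose by 0.39 ± 0.10 and 0.43 ± 0.09 on the log2 scale (SE). Psmd4, a ubiquitin receptor, rose by 0.30 ± 0.07. The lid genes Psmd6, Psmd7, Psmd12 and Psmd13 rose by 0.32 to 0.44. Of these, Psmd6 was not called without control replicate 2 or 3, or DPCP replicate 1 or 2 (edgeR adjusted p of 0.0546 to 0.0860). Psmd8, also of the lid, was the exception. It was at 232, 213 and 248 CPM in control and at 213, 215 and 206 CPM in DPCP libraries, with overlapping groups and a difference of −0.13 ± 0.09 on the log2 scale (edgeR adjusted p = 0.260). None of its sequence was found in another gene at a length of 100 bases.

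**Figure D3:**
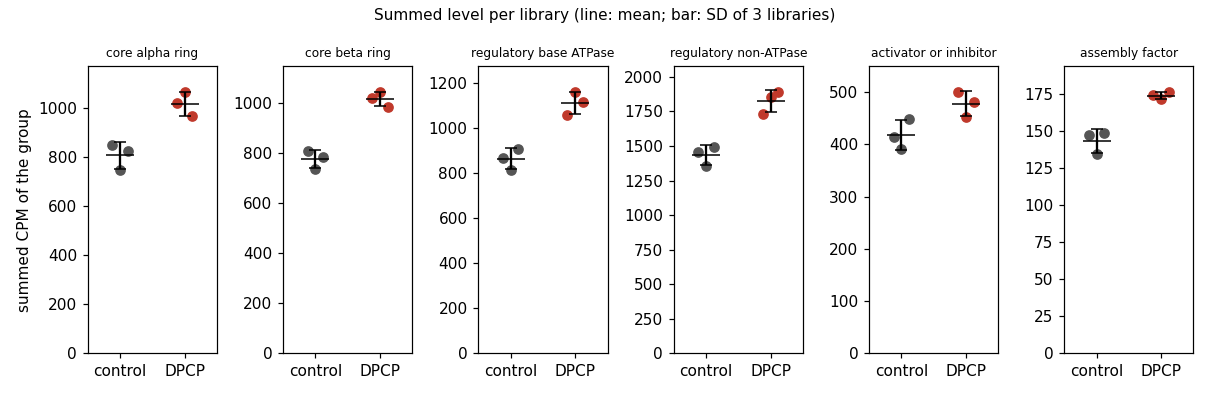
The summed CPM of the genes of each group (y axis, from 0) is plotted per library, with the mean as a line and the SD of 3 libraries as a bar. In all 6 panels the DPCP libraries lie above all control libraries, and the activator panel shows the smallest ratio of means, 1.14.

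The activators and the inhibitor were mostly not called, and the 20% called higher was near the 22.8% over all genes tested. Psme3, the gamma activator found in nuclei (ENSMUSG00000078652, chromosome 11, 101316213 to 101323537), was the 1 gene of 5 that rose, from 78.7, 71.0 and 89.9 CPM to 112, 109 and 121 CPM. Its log2 fold change was 0.51 ± 0.10 (SE, edgeR adjusted p = 0.00412), and it stayed called without each library in turn. Psme1 and Psme2, the alpha and beta chains of the interferon-inducible activator, were at 94.7 ± 4.64 and 71.4 ± 6.52 CPM in control and at 101 ± 4.56 and 80.1 ± 11.4 CPM in DPCP skin (SD, n = 3). Their log2 fold changes of 0.09 ± 0.08 and 0.17 ± 0.12 (SE) were not called. For Psme2, 44.5% of the 100-base stretches occur in the near-identical gene Psme2b, so its level is uncertain. Psme4, an ATP-independent activator, was at 139, 129 and 162 CPM in control and at 158, 143 and 153 CPM in DPCP libraries (0.08 ± 0.10, SE, edgeR adjusted p = 0.547). Psmf1, named as an inhibitor of the core, was at 28.3 ± 3.67 and 31.1 ± 3.84 CPM (SD, n = 3).

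Assembly factor genes rose in 4 of 7 cases (57.1%, against 22.8% over all genes tested), and in 2 without control replicate 2. Psmd9, a chaperone of the base, was at 28.0, 28.4 and 27.4 CPM in control and at 35.0, 35.1 and 36.1 CPM in DPCP libraries. The spread within groups was small beside the gap between them (log2 fold change 0.34 ± 0.08, SE, edgeR adjusted p = 0.00731). Psmd5, another base chaperone, rose from 48.0, 43.4 and 50.1 to 61.5, 55.7 and 58.2 CPM (0.31 ± 0.09, SE), and Psmd10, also of this kind, by 0.41 ± 0.12 (SE). Psmd5 was not called without control replicate 2 or DPCP replicate 1 (edgeR adjusted p = 0.0581 and 0.0512), nor Psmd10 without control replicate 2 or DPCP replicate 2 (0.0605 and 0.0825).

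Psmg1 and Psmg2 encode a pair of chaperones that bind each other and start the alpha ring. Psmg1 rose from 16.7, 15.9 and 17.5 to 20.9, 23.8 and 23.1 CPM, by 0.43 ± 0.10 on the log2 scale (SE, edgeR adjusted p = 0.00771). Psmg2 was at 23.1, 21.4 and 24.6 CPM in control and at 20.6, 20.6 and 23.6 CPM in DPCP skin (−0.09 ± 0.10, SE, edgeR adjusted p = 0.484), and the difference between the partners was not tested. Psmg3 and Psmg4, which also pair, were at 4.76 ± 0.210 and 6.51 ± 0.999 CPM in control and at 6.02 ± 0.670 and 7.01 ± 0.911 CPM in DPCP skin (SD, n = 3), neither called.

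The immunoproteasome subunits replace the catalytic beta subunits in cells exposed to interferon gamma. Psmb10, which replaces Psmb7, rose from 32.6, 33.6 and 26.0 to 46.7, 45.7 and 43.2 CPM (log2 fold change 0.56 ± 0.11, SE, edgeR adjusted p = 0.004). Psmb8, which replaces Psmb5, was at 36.3, 34.5 and 26.0 CPM in control and at 37.9, 36.4 and 37.8 CPM in DPCP libraries, and Psmb9, which replaces Psmb6, at 31.4 ± 5.32 and 30.6 ± 2.67 CPM (SD, n = 3). Neither passed (edgeR adjusted p = 0.205 and 0.842). Control replicate 3 was the lowest library for each of these 3 genes.

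Within-library ratios need no scaling between libraries. As log2 ratios of reads per kilobase of merged exons, Psmb9 to Psmb6 went from −3.02 ± 0.22 in control to −3.45 ± 0.13 in DPCP libraries (SD, n = 3; exact permutation test, two-sided, p = 0.1). Psme1 to Psme3 went from 0.67 ± 0.24 to 0.24 ± 0.10 (SD, n = 3; exact permutation p = 0.1). The groups did not overlap in either ratio, and 0.1 is the smallest p that 3 against 3 libraries allow. Psmb8 to Psmb5 differed by −0.30 and Psmb10 to Psmb7 by 0.29 between the group means, with overlapping groups (exact permutation p = 0.3 and 0.2). After adjustment over the 4 ratios the exact permutation p-values were 0.2 to 0.3, so none passed.

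**Figure D4:**
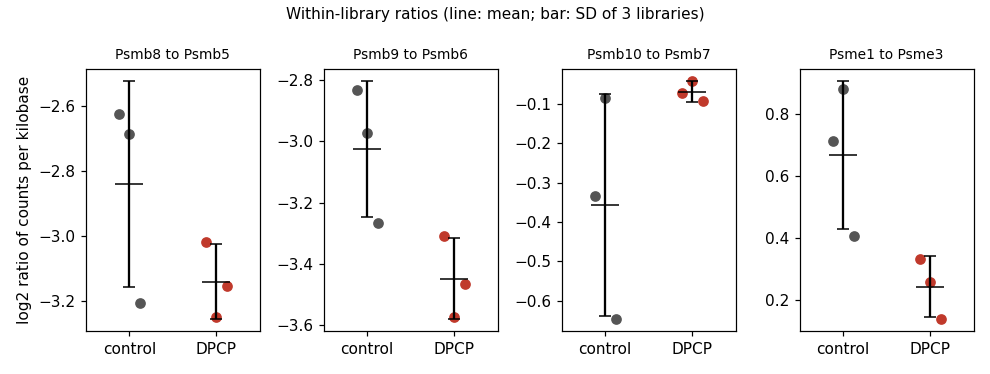
Log2 ratios of reads per kilobase (y axis, a separate scale in each panel) are plotted per library for 4 gene pairs, with the mean as a line and the SD of 3 libraries as a bar. DPCP points lie below all control points for Psmb9 to Psmb6 and Psme1 to Psme3.

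Of 15 listed proteasome parts named outside the Psm series, 14 were matched and tested. Of these, 6 were higher, 2 lower and 6 not called, with a median log2 fold change of 0.20, beside 22.8% higher and 23.3% lower over all genes tested. With RLE factors, no count filter, DESeq2 or a replicate block, and without each library other than control replicate 2, 1 was lower. Uchl5, a deubiquitinase of the regulatory particle, rose by 0.55 ± 0.09 and Usp14, another, by 0.42 ± 0.08 on the log2 scale (SE). Pomp, the maturation factor of the core, rose from 92.4, 87.1 and 93.7 to 124, 133 and 114 CPM (0.44 ± 0.09, SE). Ecpas, an adaptor bound to assembled proteasomes, fell from 168, 156 and 168 to 137, 126 and 128 CPM (−0.33 ± 0.08, SE, edgeR adjusted p = 0.00979).

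Of 14 known regulators of proteasome genes, 3 were higher and 3 lower, and the median log2 fold change was −0.09. These shares were near those over all genes tested (22.8% and 23.3%). With library totals alone or without control replicate 2, 1 was higher. The number lower was 1 on leaving out the third control library or DPCP replicate 2 or 3, and also among genes sharing no exon base. Nfe2l2, the stress-activated factor of the antioxidant response, rose from 87.5, 101 and 97.5 to 186, 216 and 219.7 CPM (log2 fold change 1.12 ± 0.10, SE, edgeR adjusted p = 7.63e-05). Its paralogue Nfe2l1, which drives proteasome genes when proteasome activity is short, was at 423, 452 and 529 CPM in control and at 379, 356 and 400.5 CPM in DPCP libraries. It was chosen after its values were seen and was called lower at an edgeR adjusted p of 0.0466 (−0.30 ± 0.11, SE). That call was lost with RLE factors, with no count filter and without every library except control replicate 1, with edgeR adjusted p-values up to 0.158. Mafk, a small Maf partner, fell by 0.45 ± 0.08, Nfyb rose by 0.31 ± 0.09, and Vcp, the segregase that extracts ubiquitin-tagged proteins, rose by 0.31 ± 0.09 (SE). The calls of Nfyb and Vcp were lost with library totals alone (edgeR adjusted p = 0.0628 and 0.0574) and without some libraries. The edgeR adjusted p was 0.0628 for Nfyb without control replicate 2 and 0.0537 for Vcp without DPCP replicate 3.

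Upstream of the proteasome, 6 of 21 genes of ubiquitin, its activation and its conjugation were higher and 1 was lower, beside 22.8% higher and 23.3% lower over all genes tested. With library totals alone 4 were higher and 4 lower, 2 were lower without DPCP replicate 3, and among genes sharing no exon base 2 were higher. The conjugating enzymes Ube2c and Ube2s, which serve the anaphase-promoting complex in mitosis, rose by 1.74 ± 0.11 and 1.005 ± 0.08 on the log2 scale, and Ube2n, which builds signalling chains, by 0.49 ± 0.09 (SE). Ube2b fell from 163, 159.9 and 173 to 113, 104 and 88.6 CPM. Of 14 shuttle factors and segregase genes, 3 were higher and 2 lower, neither share above that over all genes tested. Vcp among the 3 and Ddi2 among the 2 were also counted in the list of regulators. With library totals alone 1 was higher and 2 lower. The number higher was also 1 without control replicate 2 or DPCP replicate 3, and the number lower was 0 or 1 without each library other than DPCP replicate 1 and 0 among genes sharing no exon base. Rad23b, which carries substrates to the proteasome, rose by 0.52 ± 0.09 and Nploc4, a cofactor of Vcp, by 0.31 ± 0.09. Sqstm1, a receptor shared with autophagy, fell by 0.29 ± 0.08 (SE). The calls of Nploc4 and Sqstm1 were both lost on leaving out control replicate 1 or 2 or the third DPCP library, and that of Nploc4 also with library totals alone (edgeR adjusted p = 0.0548). Of the genes named in these lists, Psmb8, Psmb9, Usp14, Vcp, Mafk, Ube2c, Ube2s and Sqstm1 share exon bases with a gene on the other strand.

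**Figure D5:**
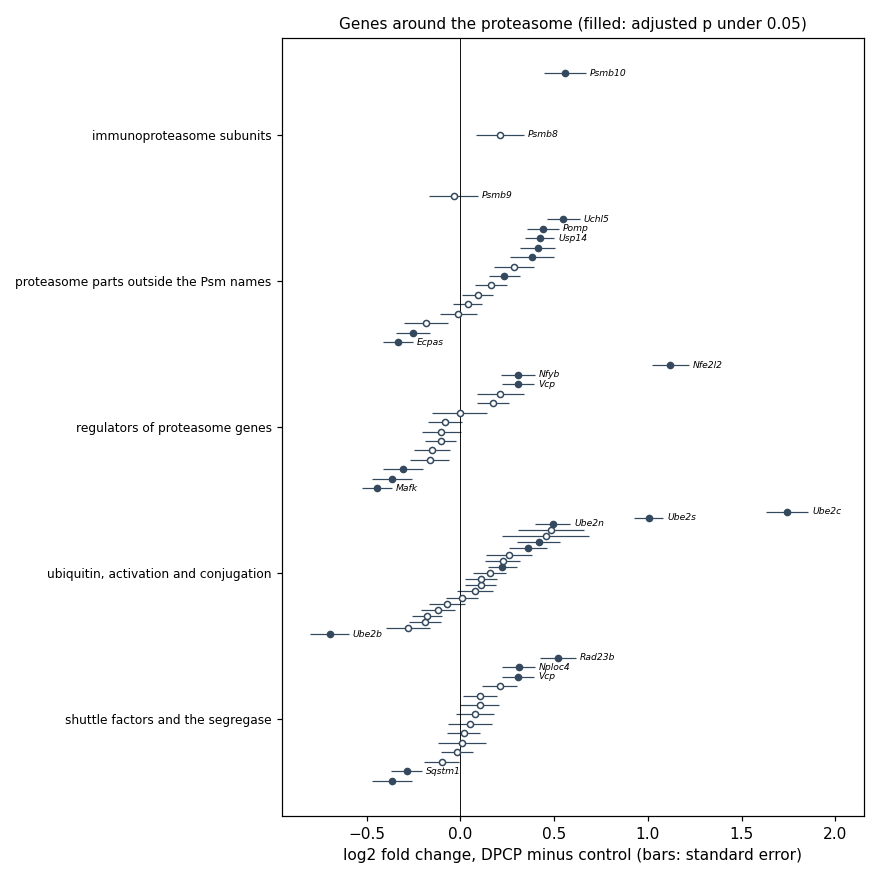
Log2 fold changes (x axis, DPCP minus control, bars for the standard error) are drawn for 5 lists of genes around the proteasome, with filled points for an edgeR adjusted p under 0.05. Nfe2l2, Ube2s and Ube2c lie at 1.005 or above, and Ube2b lies lowest at −0.70.

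In whole tissue, more cells of a type and more RNA per cell cannot be told apart, and several cell types changed with the treatment. Genes of dividing cells summed to 369 to 405 CPM in control and to 861 to 924 CPM in DPCP libraries, with all 5 higher. Neutrophil genes went from 17.6 to 24.1 CPM up to 453 to 1208 CPM (5 of 5 higher), macrophage genes from 611 to 1014 CPM up to 1322 to 2170.2 CPM (2 of 4 higher) and endothelial genes from 100.4 to 124 CPM up to 221 to 275 CPM (2 of 2 higher). Skeletal muscle genes fell from 8440 to 11639 CPM down to 2291 to 5005 CPM (4 of 5 lower), T cell genes from 28.8 to 37.4 down to 6.76 to 10.998 CPM (3 of 3 lower) and 1 of 3 adipocyte genes was lower. Of 4 fibroblast genes 1 was higher, and of 5 keratinocyte genes 1 was higher (Krt14) and 2 were lower (Krt1 and Krt10). No marker had 0 reads over all libraries. Mitochondrial genes took 3.96% to 4.07% of reads in control and 3.41% to 3.49% in DPCP libraries. The part of these changes in the proteasome result was not tested.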

How the data were processed

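Polyadenylated RNA of 6 skin libraries was sequenced in pairs from a strand-preserving kit, per the labels' protocols. The deposited values were raw counts per gene made with featureCounts 1.6.2 on the Ensembl GRCm38 annotation, per the file headers. The command set no strand, pair or overlap option, so antisense reads are counted with sense ones and reads shared by genes are dropped. The submitters' processing notes also name Trimmomatic 0.36, HISAT2 2.2.1, StringTie 2.2.1 and DESeq2 1.34.0. Symbols came from GENCODE M21 for 55227 of 55487 genes.

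Counts were tested with edgeR 4.0.16 (quasi-likelihood, TMM factors of 0.942 to 1.04, default filterByExpr) in R 4.3.3, with Benjamini-Hochberg adjustment over all 18259 genes. CPM used the TMM-scaled library sizes. A 0 in a library would allow up to 0.0772 to 0.106 CPM (3 reads), covering counting error only. The procedure was tested on simulated counts. No library was a copy of another, since for every pair the chi-square of the counts, divided by the number of genes, was 20.0 or more. Exact permutation tests compared the ratios, with a pseudocount of 0.5 reads. Sequence shared with other genes was searched in GENCODE M21 transcripts.

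Per-library values are given, in each group of members, for up to 3 genes with the smallest p in the main direction, called genes of the other direction, and the smallest absolute log2 fold change; pathway lists add up to 3 genes and 1 of the other direction. Members and lists were chosen with earlier results of these data known. Alternatives were other scaling factors, filters, DESeq2 1.42.0, a fold minimum of 1.5, a replicate block, genes sharing no exon base and leaving out each library.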

Additional observations from a re-analysis of the deposited data

How the results depend on the processing

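The count of members called higher was 31 and ranged from 23 to 30 over the 6 fits that left out 1 library. Whether the losses without 1 library were particular to the members was not tested. The count was 25 with library totals alone and 30 or 31 with RLE or upper-quartile factors, either other count filter or DESeq2. All genes called higher numbered 3517 with library totals alone and 3900 to 4361 in the latter fits. With a fold change of at least 1.5 added, 3 members were called higher, and all genes called higher numbered 2565 instead of 4163. Among genes sharing no exon base, genes called higher in DPCP skin numbered 2708 of the 12271 tested, and 22 of 34 members were called higher. Among the 27 members without shared exon bases or copied stretches, a restriction chosen after seeing the data, 17 were called higher. Copied stretches were searched for the members alone, so no share over all genes stands beside this count. No member was called lower in any of these fits. Psma1, Psma3, Psma4, Psmb7, Psmc5, Psmd5, Psmd6 and Psmd10 lost their call in at least 1 fit without a fold minimum, and the other 23 kept it. The members' median log2 fold change ranged from 0.27 with library totals alone to 0.40 without control replicate 1.

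Same-numbered control and DPCP libraries deviated together with correlations of 0.0711, 0.0544 and 0.216, not all over 0.1. Differently numbered ones had correlations of −0.26 to 0.18. With 3 libraries per group these values cannot decide whether replicate numbers pair the libraries, and the main fit used no pairing. With a replicate block 30 members were called higher, and Psmc5 lost its call (adjusted p = 0.0515).

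Among genes not called, the sign of the log2 fold change of Psma6 turned with library totals alone (−0.026), without control replicate 2 (−0.0065) and without DPCP replicate 2 (−0.0027). Leaving out each library gave −0.0065 to 0.13 for Psma6. It gave −0.0013 (without DPCP replicate 1) to 0.25 for Psmg4. For Psmb9 it gave −0.15 to 0.10, above 0 without control replicate 1 (0.10) and DPCP replicate 2 (0.0041). The cause was not tested. Members with the fewest reads, Psma8 above all, have the widest errors.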
